A study of Homo sapiens with 18 samples.

Results

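The genes described here encode the enzymes that build cholesterol and fatty acids, the proteins that switch those enzymes on and off, a lipoprotein receptor and a sterol carrier. They were chosen by name and role, with earlier results of these data known, and are 33 of the 56269 genes in the table. The shares of them given below therefore describe the list and do not test it. By role, 7 act in the mevalonate steps, 11 in the squalene and sterol steps, 5 regulate the pathway, 2 take up lipoproteins or carry sterol, and 8 make or process fatty acids. None of the 33 fell under the minimum mean value of 10, and all 33 were tested.

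RNA came from IMR90, a strain of human primary lung fibroblasts, so that every library shares 1 genetic background. The cells were cultured in EMEM with 15% fetal bovine serum and sequenced in 6 groups of 3 libraries. Before collection they were kept for 6 h with PBS or with 20 µg/ml of hyaluronan (HA), the long sugar polymer of the extracellular matrix, which was purified from medium of naked mole-rat skin fibroblasts. One preparation, cNSF-HA, had been heated with inactivated hyaluronidase and so left long, and the other, fNSF-HA, had been partly cut by active hyaluronidase. Cells of 3 groups were collected at that point. In the other 3 groups the medium was taken off, the cells received 200 µM tBHP (tert-butyl hydroperoxide, an organic peroxide used as an oxidant) for 1 h, and RNA was taken 6 h after tBHP was added. Cells with and without tBHP thus also differed in hours in culture and in a change of medium, and these cannot be told apart from tBHP itself. The study calls its replicates biological.

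Cells sense cholesterol in the membrane of the endoplasmic reticulum. When sterol is scarce, SCAP carries the transcription factors SREBP1 and SREBP2, encoded by SREBF1 and SREBF2, to the Golgi, where proteases release the part that enters the nucleus and turns on the genes of sterol and fatty acid synthesis. When sterol is plentiful, INSIG1 and INSIG2 hold SCAP back and these genes are turned down. Fibroblasts in serum obtain cholesterol both by making it and by taking up lipoproteins.

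The libraries held from 20261103 to 26287660 reads counted on genes. The fibroblast markers COL1A1, COL1A2, COL3A1, VIM, THY1, PDGFRB, LUM and DCN summed to deposited values of 452013 to 717947 per library. Markers of epithelial, endothelial and blood cells and of hepatocytes summed to at most 27.3, and those of adipocytes to at most 253. The spread between replicates was wider after tBHP: the median SD within groups of the log2 values of the 33 genes was 0.060 without tBHP and 0.18 after it, against 0.076 and 0.21 over all genes tested. The libraries did not keep strand, and genes on the opposite strand overlap 14.95% of the exon length of HMGCS1, 14.8% of that of IDI1 and 7.90% of that of VLDLR, whose reads cannot be told apart there. fNSF-HA + tBHP replicates 2 and 3 stood apart in opposite directions. Among the tenth of genes with the highest GC content, the median deviation from the group mean was -0.53 in replicate 2 and 0.45 in replicate 3 on the log2 scale. PBS + tBHP replicate 1 and cNSF-HA + tBHP replicate 3 also stood apart from the other replicates of their groups: the chi-square per degree of freedom between read counts was 18.5 and 15.6 in pairs with the former, against 4.22 for the third pair, and 35.7 and 28.2 in pairs with the latter, against 2.86.

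Promoter sequence is shown for the 6 genes with the largest tBHP responses, which carry the main result, and for SREBF2, whose window alone held the sterol element searched for. Windows of 300 bases around the gene start (250 before it and 50 after) were found in RefSeq (GRCh38.p14) for 29 of the 33 genes. ACAT2, FDFT1, SQLE and FASN had none. The stretches are printed 5′ to 3′ on the strand of the gene and end at the base before the gene start, except that of SREBF2, which surrounds its match to the sterol regulatory element core. Capitals mark that core, GC boxes (GGGCGG or its reverse complement CCGCCC) and CCAAT boxes (CCAAT or ATTGG). GC and CCAAT boxes are the elements of Sp1 and NF-Y, factors that SREBPs are known to work beside.
VLDLR, which rose, chr9:2621637-2621786, plus strand: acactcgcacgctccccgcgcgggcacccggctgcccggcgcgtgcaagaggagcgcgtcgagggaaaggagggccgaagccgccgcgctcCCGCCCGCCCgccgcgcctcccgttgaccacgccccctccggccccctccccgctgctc
FADS1, which rose, chr11:61817004-61817153, minus strand: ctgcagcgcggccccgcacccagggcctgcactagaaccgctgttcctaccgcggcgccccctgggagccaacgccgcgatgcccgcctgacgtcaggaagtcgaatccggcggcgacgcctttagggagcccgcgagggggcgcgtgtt
ELOVL6, which fell, chr4:110198616-110198765, minus strand: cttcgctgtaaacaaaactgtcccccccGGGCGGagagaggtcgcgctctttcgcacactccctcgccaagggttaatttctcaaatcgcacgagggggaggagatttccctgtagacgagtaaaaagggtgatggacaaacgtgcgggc
SC5D, which fell, chr11:121292621-121292770, plus strand: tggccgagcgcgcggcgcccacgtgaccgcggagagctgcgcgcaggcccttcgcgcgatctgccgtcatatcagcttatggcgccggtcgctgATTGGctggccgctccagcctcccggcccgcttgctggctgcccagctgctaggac
MSMO1, which fell, chr4:165327519-165327668, plus strand: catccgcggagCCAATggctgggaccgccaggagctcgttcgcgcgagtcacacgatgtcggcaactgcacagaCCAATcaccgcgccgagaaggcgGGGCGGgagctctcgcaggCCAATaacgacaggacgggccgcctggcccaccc
STARD4, which fell, chr5:111512536-111512685, minus strand: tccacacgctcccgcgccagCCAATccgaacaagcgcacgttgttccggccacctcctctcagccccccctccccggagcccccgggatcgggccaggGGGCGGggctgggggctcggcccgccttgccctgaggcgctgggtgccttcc
SREBF2, not called in any response, chr22:41832912-41833040, plus strand: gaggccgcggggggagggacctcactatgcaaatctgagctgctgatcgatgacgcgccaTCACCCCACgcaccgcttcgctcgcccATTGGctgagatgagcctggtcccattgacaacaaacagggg

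The printed stretch of MSMO1 held 3 CCAAT boxes and 1 GC box, that of STARD4 held 1 of each, and that of SC5D held 1 CCAAT box. Those of VLDLR and ELOVL6 held GC boxes and no CCAAT box, and that of FADS1 held neither. The exact core TCACNCCAC, read on both strands, was found in 1 of the 29 whole windows (3.45%, against 1.15% of 27305 promoter windows of the same length). It was the letters TCACCCCAC of SREBF2, starting 133 bases before the gene start. CCAAT boxes lay in 17 of the 29 windows (58.6% against 35.7%) and GC boxes in 27 (93.1% against 44.6%). The shares compared with are those of all genes with such a window, whether or not expressed in these cells. Such a match describes letters in a window, and the absence of one says nothing of sites elsewhere.

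The first question was how these genes moved when the cells met tBHP. In PBS cells VLDLR rose 4.50-fold and FADS1 2.05-fold, while ELOVL6, SC5D, MSMO1 and STARD4 fell to 0.412, 0.431, 0.432 and 0.483 of their level without tBHP. The same 6 genes were called in the same direction after either HA. A gene is called here when its adjusted p (limma, Benjamini-Hochberg over 13686 genes, two-sided) is under 0.05.

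Of the 33 genes, 6 were higher and 12 lower after tBHP in PBS cells, where 24.2% of all genes tested were called higher and 26.9% lower. The 12 came to 20 (29.4% of all genes lower) when the trend of each library's log2 values with the GC content and length of the transcripts was removed. In cNSF-HA cells 6 were higher and 13 lower (24.0% and 26.8% of all genes). In fNSF-HA cells 5 were higher and 18 lower (19.2% and 22.7% of all genes), but the 5 came to 2 with no minimum mean, with only the 2 groups compared in the fit, or without fNSF-HA replicate 2 or 3 or fNSF-HA + tBHP replicate 1 or 3, and to 3 without fNSF-HA replicate 1. With only the 2 groups fitted, 14 were called in either direction (42.4%, against 31.2% of all genes). Of the lower ones, EBP, HMGCS1, INSIG2, MVD, MVK and SCAP then lost their calls. Without PBS + tBHP replicate 1, 5 were higher and 13 lower in PBS cells (20.7% and 23.3% of all genes), and without cNSF-HA + tBHP replicate 3 the cNSF-HA counts were again 6 and 13 (21.2% and 24.1%). The median log2 change of the 33 genes was -0.22, -0.14 and -0.31 in the 3 pre-incubations, against 0.0043, -0.00053 and -0.034 over all genes tested. With edgeR the medians were -0.15, -0.077 and -0.24, against 0.075, 0.065 and 0.042 over all genes. These 3 responses share no library, although 1 estimate of the spread served all groups. In bulk RNA, fewer cells with a transcript and less transcript per cell cannot be told apart.

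Called higher in all 3 responses were 5 of the 33 genes (VLDLR, FADS1, FADS2, FDPS and NSDHL), or 15.2%, against 14.6% of all genes tested. Called lower in all 3 were 11 genes (HMGCS1, IDI1, SQLE, MSMO1, SC5D, DHCR7, INSIG1, INSIG2, STARD4, ACACA and ELOVL6), or 33.3%, against 17.9% of all genes. No gene was called in opposite directions in 2 responses. Another 9 genes were called in 1 or 2 responses, and 8 in none (FDFT1, SCD, ACLY, LPIN1, SREBF2, HSD17B7, TM7SF2 and PMVK). These counts also moved with the GC and length trend removed. In that fit 2 genes were called higher in all 3 responses (VLDLR and FADS1; 6.06% against 18.3% of all genes) and 17 lower (51.5% against 22.3%).

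**Figure D1:**
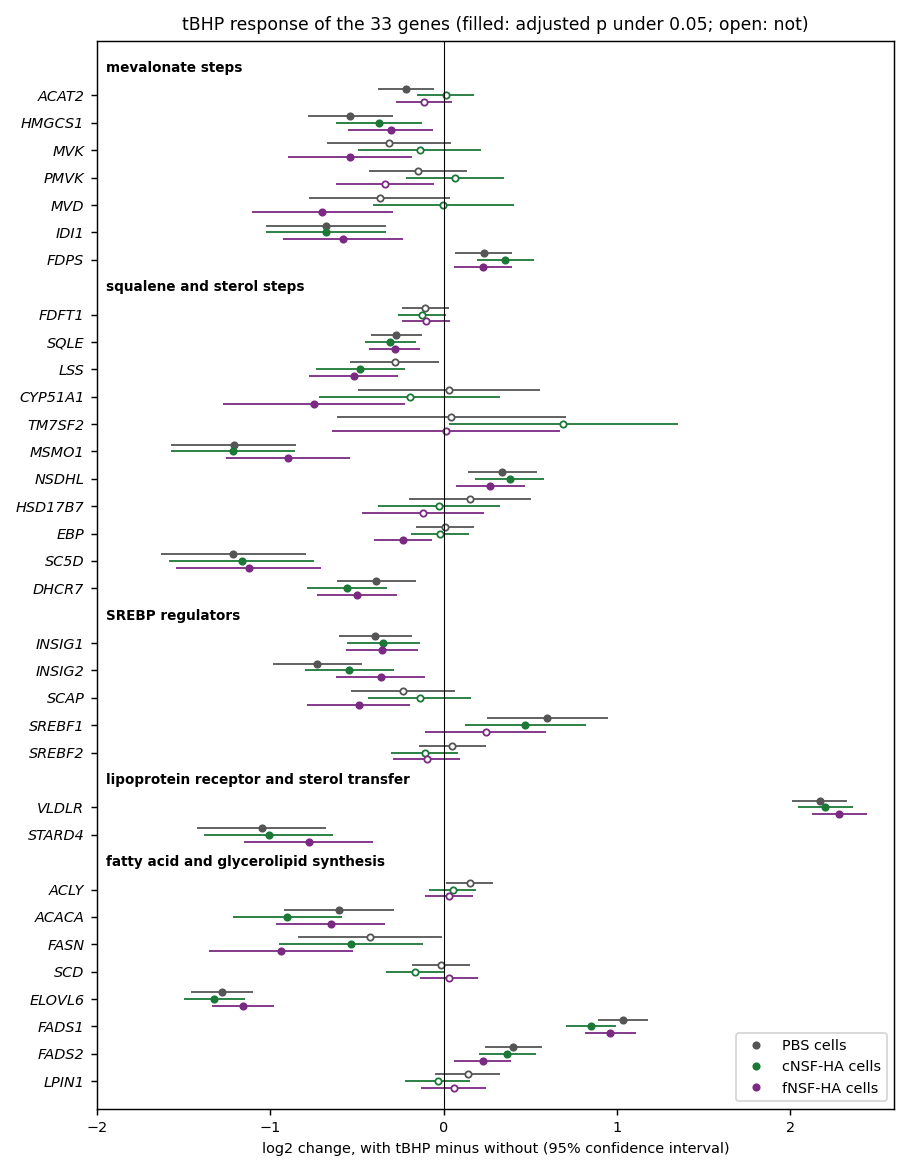
Log2 change after tBHP (x axis, deposited value plus 1, with tBHP minus without) of the 33 genes, listed by role on the y axis, in PBS, cNSF-HA and fNSF-HA cells, with 95% confidence intervals from limma and filled points for adjusted p under 0.05. VLDLR stands alone above 2, FADS1 lies near 1, and ELOVL6, SC5D, MSMO1 and STARD4 lie farthest below 0.

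VLDLR encodes the very low density lipoprotein receptor, which binds triglyceride-rich lipoproteins and takes them into the cell. Its deposited value was 429.7, 402 and 402 in the PBS libraries, 391, 363 and 410.4 in cNSF-HA and 398, 400.1 and 402 in fNSF-HA cells without tBHP. After tBHP it was 1859, 1885 and 1812 in PBS, 1866, 1893 and 1616 in cNSF-HA and 1998, 2022 and 1842 in fNSF-HA cells. The lowest library with tBHP, at 1616, stood far above the highest without, at 429.7. The log2 change was 2.17 in PBS, 2.20 in cNSF-HA and 2.28 in fNSF-HA cells (95% confidence intervals 2.01 to 2.33, 2.04 to 2.36 and 2.13 to 2.44; adjusted p 3.67e-13, 3.80e-13 and 2.14e-13, limma), and the differences between the 3 responses were at most 0.11. With the GC and length trend removed, it was 2.18, 2.26 and 2.25.

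STARD4, a carrier that moves cholesterol between membranes, went the other way. Without tBHP its value was 755, 801 and 861 in PBS, 666, 719 and 788 in cNSF-HA and 758, 839.6 and 788 in fNSF-HA cells. After tBHP it was 291, 469 and 428 in PBS, 320.4, 373 and 384 in cNSF-HA and 461, 628 and 342 in fNSF-HA cells, and the highest library, fNSF-HA + tBHP replicate 2, stayed below the lowest without tBHP. The log2 change was -1.05 in PBS, -1.01 in cNSF-HA and -0.78 in fNSF-HA cells (adjusted p 9.29e-05, 1.46e-04 and 0.00179, limma). Without the GC and length trend it was smaller, at -0.64, -0.67 and -0.58, and still called in each response.

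Sterol synthesis starts from acetyl-CoA with the mevalonate steps. Of the 7 genes of these steps, HMGCS1 and IDI1 fell and FDPS rose in all 3 responses. ACAT2 fell in PBS cells, MVK and MVD fell in fNSF-HA cells, and PMVK was called in none. The call of ACAT2 was lost without PBS replicate 1 or 2 or PBS + tBHP replicate 1 (adjusted p 0.0705, 0.0758 and 0.135) and with edgeR (0.0953), and that of MVK without fNSF-HA replicate 3 (0.0746) or fNSF-HA + tBHP replicate 2 (0.0751), the rest by limma. With only the 2 groups compared in the limma fit, MVK and MVD lost their calls (adjusted p 0.0754 and 0.0818). Without fNSF-HA + tBHP replicate 2 the change of MVK in fNSF-HA cells was -0.33, and that of MVD was -0.39 and still called (0.0204). In PBS cells library weights called MVD at -0.46 and MVK at -0.42 (9.24e-05 and 0.00751), as did the fit of only the 2 groups for MVD (0.00732). PMVK was called in fNSF-HA cells with a minimum mean of 50 (0.0487), with the replicate block (0.0273), with library weights (0.00404) and without fNSF-HA + tBHP replicate 1 or 3 (0.0464 and 0.00529). With the GC and length trend removed, MVK, MVD and PMVK were each called lower in all 3 responses, at -0.58, -0.44 and -0.63 for MVK, -0.75, -0.42 and -0.79 for MVD and -0.42, -0.24 and -0.44 for PMVK.

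HMGCS1 makes HMG-CoA, the precursor of mevalonate. Its values without tBHP were 671, 664 and 649 in PBS, 605, 664 and 621 in cNSF-HA and 643, 722 and 669.9 in fNSF-HA cells. With tBHP they were 407, 422 and 548 in PBS, 447, 515 and 499 in cNSF-HA and 533, 655 and 470.4 in fNSF-HA cells. The groups did not overlap in PBS and cNSF-HA cells, but fNSF-HA + tBHP replicate 2 lay among the libraries without tBHP. The log2 change was -0.54 in PBS, -0.37 in cNSF-HA and -0.31 in fNSF-HA cells (adjusted p 9.67e-04, 0.0135 and 0.0436, limma). The call in PBS cells held under all alternatives and with any 1 library left out. In fNSF-HA cells it was lost without fNSF-HA replicate 1, 2 or 3 or fNSF-HA + tBHP replicate 1 or 3 (adjusted p 0.0569 to 0.193), and in cNSF-HA cells without cNSF-HA replicate 2 or cNSF-HA + tBHP replicate 1 (0.0545 and 0.0599). The fNSF-HA call was also lost with no minimum mean, quantile normalization, edgeR and only the 2 groups fitted (0.0795, 0.104, 0.0955 and 0.121). With the GC and length trend removed, the changes were -0.31, -0.17 and -0.22, and that in cNSF-HA cells was not called (0.0967).

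IDI1 interconverts the 5-carbon isoprenoid units from which sterols are joined. It stood at 721, 769 and 762 in PBS, 716, 747 and 726 in cNSF-HA and 781, 816 and 748 in fNSF-HA cells without tBHP. After tBHP the libraries held 345, 503 and 594 in PBS, 427, 406 and 543 in cNSF-HA and 481, 668 and 442 in fNSF-HA cells. All 9 libraries with tBHP lay below all 9 without. The response on the log2 scale was -0.68 in PBS, -0.68 in cNSF-HA and -0.58 in fNSF-HA cells (adjusted p 0.00236, 0.00233 and 0.00853, limma), and -0.36, -0.41 and -0.44 with the GC and length trend removed.

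FDPS, which makes farnesyl diphosphate, ran from 2024 to 2256 without tBHP and from 2269 to 3064 after it. Its log2 change was 0.23 in PBS, 0.36 in cNSF-HA and 0.23 in fNSF-HA cells (adjusted p 0.0206, 0.00113 and 0.0268, limma). In PBS cells this call was lost without PBS replicate 2 or PBS + tBHP replicate 1 or 3 (adjusted p 0.0575 to 0.0883), and in fNSF-HA cells without fNSF-HA replicate 1, 2 or 3 or fNSF-HA + tBHP replicate 1 or 3 (0.0518 to 0.0952), with no minimum mean (0.0561) or with only the 2 groups fitted (0.0689). The changes were 0.036, 0.16 and 0.094 with the GC and length trend removed, and only that in cNSF-HA cells was called. FDPS has 8 named pseudogenes, and 18.6% of its exon length overlaps other genes, so its counts are uncertain. For MVK, PMVK and MVD, the kinases and the decarboxylase between mevalonate and IDI1, the log2 changes ran from -0.70 (MVD in fNSF-HA cells) to 0.063 (PMVK in cNSF-HA cells).

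Of the 11 genes of the squalene and sterol steps, 4 fell in all 3 responses (SQLE, MSMO1, SC5D and DHCR7) and 1 rose (NSDHL). The steepest falls were of MSMO1 and SC5D. MSMO1 is the oxidase that removes methyl groups from lanosterol-derived sterols. Its values were 729, 769 and 712 in PBS, 646, 671 and 734 in cNSF-HA and 736, 761 and 774 in fNSF-HA cells without tBHP, and 236, 391 and 346 in PBS, 273, 269 and 345 in cNSF-HA and 401, 531 and 314 in fNSF-HA cells after it. The highest of the tBHP libraries, fNSF-HA + tBHP replicate 2, was still below the lowest without tBHP. tBHP changed it on the log2 scale by -1.21 in PBS, -1.22 in cNSF-HA and -0.90 in fNSF-HA cells (95% confidence intervals -1.57 to -0.85, -1.57 to -0.86 and -1.26 to -0.54; adjusted p 1.35e-05, 1.50e-05 and 3.79e-04, limma). Without the GC and length trend the changes were -0.70, -0.79 and -0.64.

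SC5D, the desaturase that sets the ring double bond late in the pathway, moved in the same way. The values were 437, 533 and 481 in PBS, 442, 445 and 462 in cNSF-HA and 539, 547 and 512 in fNSF-HA cells without tBHP. After tBHP they were 160.0, 249 and 223 in PBS, 198, 172 and 234 in cNSF-HA and 242, 354 and 169 in fNSF-HA cells, with fNSF-HA + tBHP replicates 2 and 3 the highest and the second lowest of the 9. Its log2 change was -1.21 in PBS, -1.16 in cNSF-HA and -1.12 in fNSF-HA cells (95% confidence intervals -1.63 to -0.80, -1.58 to -0.75 and -1.54 to -0.71; adjusted p 6.64e-05, 1.07e-04 and 1.85e-04, limma), and -0.65, -0.68 and -0.83 without the GC and length trend.

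DHCR7 carries out a last reduction to cholesterol. It read 502, 504 and 502 in PBS, 563, 534 and 568 in cNSF-HA and 535, 486 and 529 in fNSF-HA cells without tBHP, and 416, 334 and 407 in PBS, 393, 401 and 338 in cNSF-HA and 401, 304 and 397 in fNSF-HA cells after it. Here, too, the 9 libraries with tBHP all lay below the 9 without. On the log2 scale it changed by -0.39 in PBS, -0.56 in cNSF-HA and -0.50 in fNSF-HA cells (adjusted p 0.00662, 3.95e-04 and 0.00127, limma). Unlike the other 10 genes called lower in all 3 responses, DHCR7 has a GC content (57.1%) above the median of the 33 genes (50.9%), and its change was larger, -0.64, -0.83 and -0.63, with the GC and length trend removed.

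LSS closes squalene epoxide into the first sterol, lanosterol. Its values were 668, 694 and 668 in PBS, 770.0, 735 and 699 in cNSF-HA and 700.3, 684 and 682 in fNSF-HA cells without tBHP, and 658, 555 and 472 in PBS, 563, 575 and 448 in cNSF-HA and 510.4, 403 and 538 in fNSF-HA cells after it. The 3 tBHP groups lay below their own controls, PBS + tBHP replicate 1 only narrowly. Its log2 change was -0.28 in PBS, -0.48 in cNSF-HA and -0.52 in fNSF-HA cells (adjusted p 0.0622, 0.00322 and 0.00226, limma), so that LSS fell in both HA groups and missed the threshold in PBS cells. There it was called, at -0.40 (adjusted p 0.0138), without PBS + tBHP replicate 1, and with all libraries kept it was called with only the 2 groups fitted (0.0447) or with library weights (-0.41, 2.81e-05). It was called in all 3 responses, at -0.54, -0.72 and -0.61, with the GC and length trend removed.

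SQLE, the epoxidase that acts before LSS, ran from 844 to 979 without tBHP and from 704 to 822 after it. Its log2 change was -0.27 in PBS, -0.31 in cNSF-HA and -0.28 in fNSF-HA cells (adjusted p 0.00338, 0.00138 and 0.0033, limma). The call did not hold with the GC and length trend removed, where the change was 0.13, 0.037 and -0.089. NSDHL, a dehydrogenase of the same demethylation as MSMO1, was the member of these steps that rose, by 0.34 in PBS, 0.38 in cNSF-HA and 0.27 in fNSF-HA cells, with values of 517 to 599 without tBHP and 608 to 866 after it (adjusted p 0.00653, 0.00302 and 0.0302, limma). In fNSF-HA cells its call was lost without fNSF-HA replicate 2 or 3 or fNSF-HA + tBHP replicate 1 or 3 (adjusted p 0.0678 to 0.0987), with no minimum mean (0.0560), with only the 2 groups fitted (0.0598) and with the GC and length trend removed (0.0862).

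The remaining genes of these steps showed little movement or low values. FDFT1, the squalene synthase, ran from 1429 to 1579.7 without tBHP and from 1343 to 1515 after it, and was called lower in all 3 responses, at -0.15, -0.15 and -0.17, with the GC and length trend removed. It was also called in both HA groups with library weights (adjusted p 0.00343 and 0.0160, limma) and in cNSF-HA cells without cNSF-HA + tBHP replicate 3 (0.0251). TM7SF2, CYP51A1 and HSD17B7 had the lowest means of the 33 genes, at 18.5, 48.4 and 74.0 over all libraries. TM7SF2 was called higher in cNSF-HA cells, at 0.97 (adjusted p 0.0237, limma), without cNSF-HA replicate 1, and at 0.69 (0.0414) with the replicate block. HSD17B7, a reductase of the demethylation steps, gave log2 changes of 0.15 in PBS, -0.027 in cNSF-HA and -0.12 in fNSF-HA cells with no call, and has 2 named pseudogenes. CYP51A1 shares 83.2% of its exon length with overlapping genes, 2 of them on the same strand and 1 on the opposite strand, so its counts are uncertain. In fNSF-HA cells CYP51A1 and EBP, a sterol isomerase, fell with log2 changes of -0.75 and -0.23 (adjusted p 0.0222 and 0.0258, limma). The call of CYP51A1 was lost without fNSF-HA replicate 1, 2 or 3 or fNSF-HA + tBHP replicate 1 or 2 (adjusted p 0.0510 to 0.0766), and that of EBP without fNSF-HA replicate 1, 2 or 3 or fNSF-HA + tBHP replicate 2 (0.0559 to 0.105). Their changes in PBS cells were 0.032 and 0.0077 with no call. Removing the GC and length trend left EBP called in all 3 responses, at -0.21, -0.24 and -0.37, while CYP51A1 lost its call (adjusted p 0.136). With no minimum mean CYP51A1 also lost it (0.0575), as did EBP with quantile normalization, edgeR and only the 2 groups fitted (0.0815, 0.108 and 0.106).

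**Figure D2:**
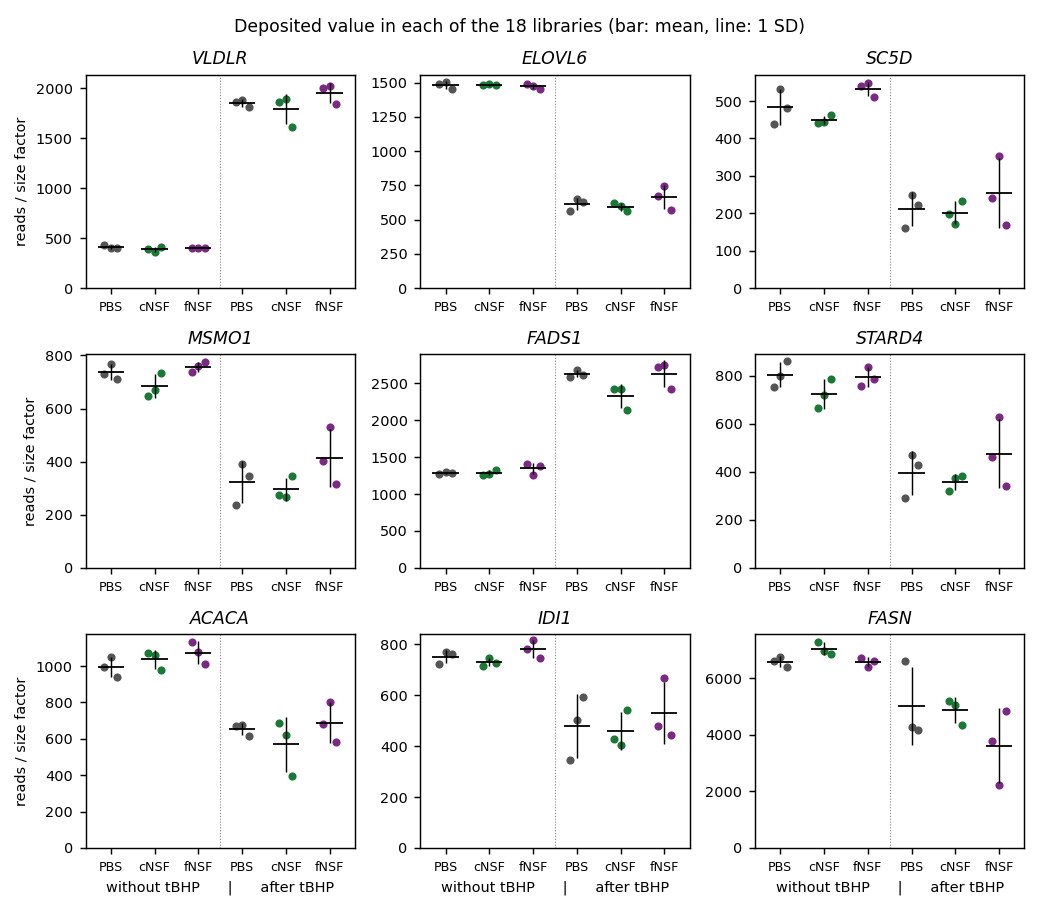
Deposited value (y axis, size-factor scaled reads) of the 9 genes with the largest mean tBHP response in each of the 6 groups (x axis), with 1 point per library, bars for means and lines for 1 SD. The tBHP libraries lie above the others for VLDLR and FADS1 and below them for the rest, apart from FASN in PBS + tBHP replicate 1.

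Of the 5 regulators, both INSIG genes fell in all 3 responses, while SREBF1 rose in PBS and cNSF-HA cells. INSIG2 read 277, 267 and 292 in PBS, 252, 269 and 268 in cNSF-HA and 283, 303 and 279 in fNSF-HA cells without tBHP. With tBHP it read 148, 189 and 168 in PBS, 167, 168 and 207 in cNSF-HA and 231, 257 and 188 in fNSF-HA cells, and fNSF-HA + tBHP replicate 2 was the only tBHP library above any library without tBHP. Fitted as a log2 change, the response was -0.73 in PBS, -0.54 in cNSF-HA and -0.36 in fNSF-HA cells (adjusted p 8.44e-05, 0.00127 and 0.0233, limma). In fNSF-HA cells the call was lost without fNSF-HA replicate 2 (adjusted p 0.0823) or fNSF-HA + tBHP replicate 3 (0.129), with quantile normalization (0.0634) and with only the 2 groups fitted (0.0782). With the GC and length trend removed, the changes were -0.24, -0.14 and -0.12, and only that in PBS cells was called.

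INSIG1, which is itself a target of SREBPs, had values of 324, 345 and 312 in PBS, 325, 309 and 296 in cNSF-HA and 314, 349 and 368 in fNSF-HA cells without tBHP. After tBHP they were 232, 253 and 263 in PBS, 226, 227 and 281 in cNSF-HA and 276, 272 and 255 in fNSF-HA cells, all below the lowest of the 9 others. The response on the log2 scale was -0.39 in PBS, -0.35 in cNSF-HA and -0.36 in fNSF-HA cells (adjusted p 0.00303, 0.00732 and 0.00777, limma). It was called in each response under every alternative.

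SREBF1 codes for SREBP1, the form that mainly drives fatty acid genes. Its values were 695, 681 and 668 in PBS, 758, 746 and 695 in cNSF-HA and 728, 619.8 and 651 in fNSF-HA cells without tBHP. After tBHP they were 1249, 894 and 986 in PBS, 959, 1045 and 1045 in cNSF-HA and 791, 556 and 1105 in fNSF-HA cells, so that the PBS and cNSF-HA groups separated and the fNSF-HA libraries ran from the lowest to the second highest value of all 18. tBHP changed it on the log2 scale by 0.60 in PBS, 0.47 in cNSF-HA and 0.24 in fNSF-HA cells (adjusted p 0.00617, 0.0252 and 0.264, limma). In cNSF-HA cells the call was lost without cNSF-HA replicate 2 or 3 or cNSF-HA + tBHP replicate 2 or 3 (adjusted p 0.0516 to 0.0783). It was also lost, at 0.069, with the GC and length trend removed (adjusted p 0.409), where the change in PBS cells was 0.23. In fNSF-HA cells the change was -0.0030 without fNSF-HA + tBHP replicate 3 and 0.49, then called (adjusted p 0.00299), without replicate 2. Library weights called it there at 0.27. SREBF2, encoding the form that mainly drives sterol genes, was called in no response, with log2 changes of 0.05 in PBS, -0.11 in cNSF-HA and -0.098 in fNSF-HA cells (95% confidence intervals -0.14 to 0.24, -0.30 to 0.084 and -0.29 to 0.096). SREBF2 was called lower in all 3, at -0.20, -0.38 and -0.23, with the GC and length trend removed, and in fNSF-HA cells with library weights (-0.11). SCAP, the carrier, changed by -0.24 in PBS, -0.14 in cNSF-HA and -0.49 in fNSF-HA cells, and only the last was called. Without fNSF-HA + tBHP replicate 2 it was -0.26 and still called (adjusted p 0.0298, limma). The call was lost with only the 2 groups fitted (0.0943), while library weights called it in all 3, and with the GC and length trend removed SCAP was called lower in all 3, at -0.51, -0.44 and -0.62.

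Among the 8 genes of fatty acid and glycerolipid synthesis, 2 rose (FADS1 and FADS2) and 2 fell (ELOVL6 and ACACA) in all 3 responses. ELOVL6 lengthens saturated and monounsaturated fatty acids of 16 carbons. It held 1491, 1506 and 1452 in PBS, 1479, 1492 and 1478 in cNSF-HA and 1488, 1475 and 1453 in fNSF-HA cells without tBHP. After tBHP the values were 561, 647 and 628 in PBS, 619, 598 and 562 in cNSF-HA and 674, 744 and 572 in fNSF-HA cells, and the highest of these, 744, lay far below the lowest value without tBHP, 1452. On the log2 scale it changed by -1.28 in PBS, -1.32 in cNSF-HA and -1.16 in fNSF-HA cells (95% confidence intervals -1.46 to -1.10, -1.50 to -1.15 and -1.33 to -0.98; adjusted p 1.43e-09, 1.04e-09 and 5.66e-09, limma).

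ACACA encodes acetyl-CoA carboxylase, the committed step of fatty acid synthesis. Its values were 995, 1049 and 939 in PBS, 1072, 1061 and 978 in cNSF-HA and 1135, 1079 and 1009 in fNSF-HA cells without tBHP, and 669.6, 678 and 615 in PBS, 688, 623 and 396 in cNSF-HA and 679.6, 804 and 581 in fNSF-HA cells after it. No library with tBHP reached one without. Its log2 change was -0.60 in PBS, -0.90 in cNSF-HA and -0.65 in fNSF-HA cells (adjusted p 0.00279, 8.35e-05 and 0.00191, limma).

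FASN, the fatty acid synthase that follows ACACA, varied far more between tBHP libraries. Without tBHP it held 6602, 6749 and 6389 in PBS, 7289, 6963 and 6859.7 in cNSF-HA and 6716, 6383 and 6617 in fNSF-HA cells. After tBHP it held 6598, 4274 and 4176 in PBS, 5187, 5063 and 4346 in cNSF-HA and 3779, 2212 and 4839 in fNSF-HA cells, and PBS + tBHP replicate 1 lay within the range of the PBS libraries. Fitted as a log2 change, the response was -0.42 in PBS, -0.54 in cNSF-HA and -0.94 in fNSF-HA cells (adjusted p 0.0822, 0.0308 and 9.46e-04, limma). FASN had the highest GC content of the 33 genes, 65.8%, and with the GC and length trend removed it was called in all 3 responses, at -0.83, -0.97 and -0.99. The change in fNSF-HA cells was -0.62 without fNSF-HA + tBHP replicate 2, and still called (adjusted p 0.000853, limma). Without PBS + tBHP replicate 1 it was called in PBS cells as well, at -0.64 (adjusted p 0.0142), and so it was with quantile normalization (0.0468), only the 2 groups fitted (0.0192) and library weights (2.20e-07). The call in cNSF-HA cells was lost without cNSF-HA replicate 1, 2 or 3 or cNSF-HA + tBHP replicate 2 or 3 (adjusted p 0.0502 to 0.113), with no minimum mean (0.0571) and with edgeR (0.0573).

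FADS1 and FADS2 are the desaturases that turn dietary 18-carbon fatty acids into arachidonic and other long polyunsaturated acids. FADS1 read 1271, 1299 and 1282 in PBS, 1263, 1277 and 1324 in cNSF-HA and 1405, 1263 and 1373 in fNSF-HA cells without tBHP. After tBHP it read 2587, 2678 and 2615 in PBS, 2417, 2416 and 2137 in cNSF-HA and 2715, 2749 and 2417 in fNSF-HA cells. The groups stood well apart, with 2137 the lowest library after tBHP and 1405 the highest without it. The response on the log2 scale was 1.03 in PBS, 0.85 in cNSF-HA and 0.96 in fNSF-HA cells (95% confidence intervals 0.89 to 1.18, 0.70 to 0.99 and 0.82 to 1.11; adjusted p 1.75e-09, 2.38e-08 and 4.70e-09, limma). FADS1 and FADS2 overlap on opposite strands, and 5.57% of the exon length of FADS1 is shared with FADS2 or a microRNA gene. FADS2 rose less, by 0.40 in PBS, 0.37 in cNSF-HA and 0.23 in fNSF-HA cells, with values of 1723 to 1861 without tBHP and 1886 to 2599 after it (adjusted p 3.70e-04, 8.46e-04 and 0.0281, limma). Its call in fNSF-HA cells was lost without fNSF-HA replicate 1, 2 or 3 or fNSF-HA + tBHP replicate 1 or 3 (adjusted p 0.0598 to 0.121), with no minimum mean (0.0573) and with only the 2 groups fitted (0.108). Its changes were 0.16, 0.12 and 0.088 with the GC and length trend removed, and that in fNSF-HA cells was not called (0.124).

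The other 3 genes of this role were called in no response. They were ACLY, which makes cytosolic acetyl-CoA from citrate, SCD, which makes oleate from stearate, and LPIN1, a phosphatidate phosphatase. Their log2 changes lay between -0.17 (SCD in cNSF-HA cells) and 0.15 (ACLY in PBS cells). ACLY was called higher in PBS cells with the replicate block, DESeq2, edgeR, only the 2 groups fitted and library weights (adjusted p 0.0487, 0.0443, 0.0112, 0.0199 and 0.00767). It was also called in cNSF-HA cells with library weights or without cNSF-HA + tBHP replicate 3 (0.00142 and 0.0178). SCD was called lower in cNSF-HA cells with quantile normalization or without cNSF-HA + tBHP replicate 1 or 2 (0.0294, 0.0417 and 0.0469).

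The 11 genes called lower in all 3 responses had lower GC content than the 5 called higher. The median GC content of their transcripts was 42.5% for the 11 genes lower in all 3 responses and 54.2% for the 5 higher ones, and 10 of the 11 lay below the median of the 33 genes. GC content also moved with the deviation of single libraries, as given above. With the GC and length trend of each library removed, 10 of the 16 genes remained called in the same direction in all 3 responses in that fit, in every other alternative and with any 1 library left out: VLDLR, FADS1, ELOVL6, SC5D, MSMO1, STARD4, IDI1, DHCR7, INSIG1 and ACACA. The other 6 (HMGCS1, SQLE, INSIG2, FDPS, NSDHL and FADS2) lost a call in at least 1 response. The same fit called lower in all 3 responses 9 genes that were not so called without it: EBP, FASN, FDFT1, LSS, MVD, MVK, PMVK, SCAP and SREBF2. The 17 genes it called lower in all 3 had a median GC content of 55.2%, above the median of the 33 genes. Over all genes so called in that fit the median was 49.2%. The part of GC content in each fall was not tested beyond this.

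**Figure D3:**
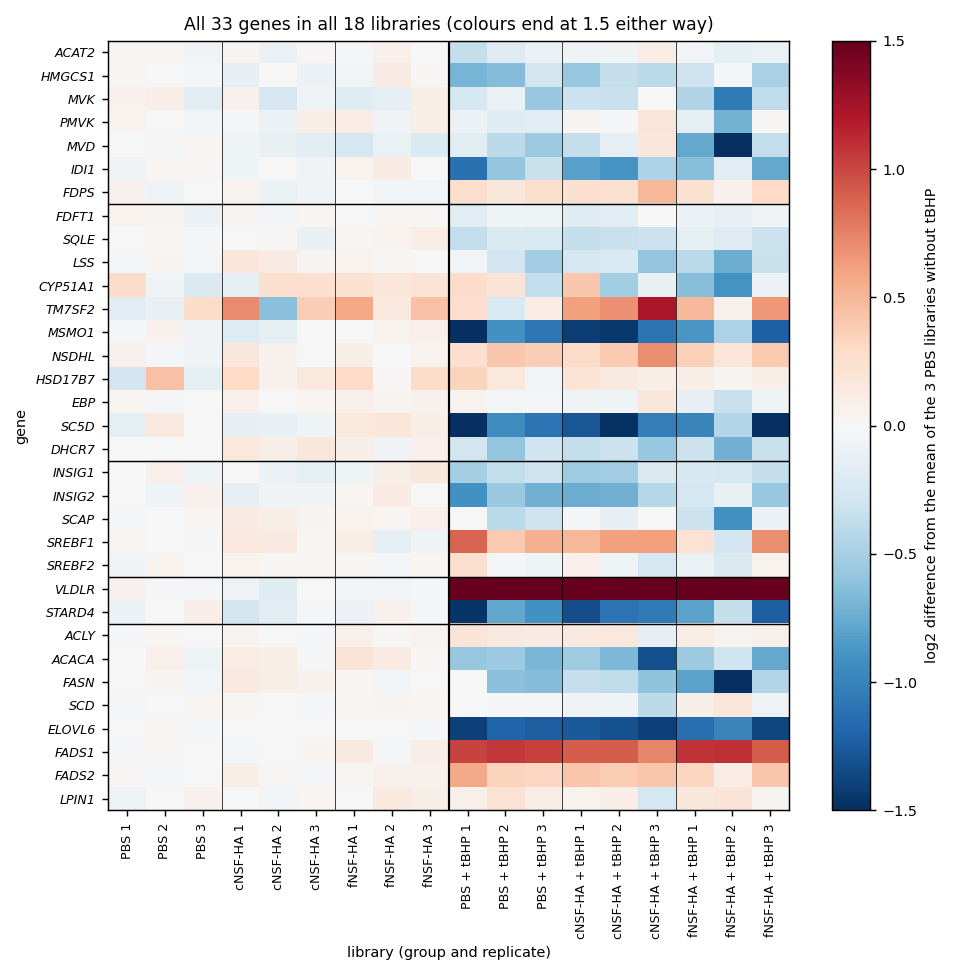
Log2 difference of each of the 33 genes (rows, by role) in each of the 18 libraries (columns, by group) from the mean of the 3 PBS libraries without tBHP, with colours ending at 1.5 either way. Without tBHP, TM7SF2 runs from -0.63 to 0.71, HSD17B7 reaches 0.44 and the other genes stay within 0.27 of 0. After tBHP the rows of VLDLR and FADS1 are red and those of MSMO1, SC5D, STARD4 and ELOVL6 blue, palest in fNSF-HA + tBHP replicate 2, where STARD4 is at -0.36.

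Levels can be compared between genes only per length. In RPKM (reads scaled to exon length and library depth), ACLY stood highest of the 33 genes in PBS cells without tBHP, at 119.5 ± 2.18 (SD, n = 3), followed by FASN at 31.9 ± 0.776. SCD and FDPS came next, at 26.5 ± 0.551 and 26.4 ± 1.25, and did not differ beyond their spread. At the other end VLDLR held 2.00 ± 0.0765, the fifth lowest RPKM, above MVK, HSD17B7, CYP51A1 and TM7SF2. Its level thus began low among these genes, and 12 of the 33 were under 5 RPKM.

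A second question was whether HA changed these genes. None of the 33 was called in any of the 6 comparisons between pre-incubations (limma), without or after tBHP. Without tBHP, none of the 33 had an unadjusted p under 0.05 either, but with only the 2 groups compared in the fit 5, 4 and 6 of them had in cNSF-HA against PBS, fNSF-HA against PBS and cNSF-HA against fNSF-HA cells, with 10.9%, 8.58% and 20.7% of all genes at that p in those fits. The share of all genes called was 0% in cNSF-HA against PBS, 0% in fNSF-HA against PBS and 0% in cNSF-HA against fNSF-HA cells, with 126, 109 and 206 of the 13686 genes at an unadjusted p under 0.05 in the fit of all groups. The tests of edgeR and DESeq2 on the recovered reads called 0 of the 33 genes as well. The limma fit of all groups used 1 estimate of the spread, although the median SD of the 33 genes was 0.060 without tBHP and 0.18 after it. Its intervals are thus in general wider than the libraries without tBHP alone would give, and it can miss small differences between them. With that shared spread, the 95% confidence interval of the log2 difference lay between -0.5 and 0.5 for 26, 28 and 27 of the 33 genes in these 3 comparisons. The first 2 share the PBS libraries, and the third shares the HA libraries of both.

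In cNSF-HA against fNSF-HA cells without tBHP, the 3 genes with the smallest p were INSIG1, SQLE and SC5D. INSIG1 held 325, 309 and 296 in cNSF-HA and 314, 349 and 368 in fNSF-HA cells, and the groups overlapped. SQLE held 901, 921 and 844 in cNSF-HA against 927, 941 and 979 in fNSF-HA cells, and its groups did not overlap. SC5D, whose values are given above, did not overlap either. Their log2 differences were -0.15, -0.096 and -0.24 (95% confidence intervals -0.35 to 0.063, -0.24 to 0.051 and -0.66 to 0.17; unadjusted p 0.159, 0.186 and 0.235, limma). Removal of the GC and length trend left -0.013 for SQLE and -0.15 for SC5D. SQLE gave -0.059 without cNSF-HA replicate 3, and INSIG1 -0.095 without fNSF-HA replicate 3. When only these 2 groups were fitted, 2 genes were called, SC5D at -0.24 (adjusted p 0.00979, limma) and FASN at 0.099 (0.0290), or 6.06% of the 33, against 7.16% of all genes.

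After tBHP, 3 of the 33 genes (9.09%) had an unadjusted p under 0.05 in cNSF-HA against PBS cells, with 0% of all genes called and 1183 of them (8.64%) at that unadjusted p. They were ACAT2, which condenses acetyl-CoA, FADS1 and TM7SF2, a sterol reductase. The estimate of the spread here included the libraries without tBHP, which varied less. With only these 2 groups fitted, 1 of the 33 had such a p and 0% of all genes were called (limma). ACAT2 read 757, 846 and 906 in PBS + tBHP and 933, 930.4 and 1049 in cNSF-HA + tBHP cells, without overlap, and TM7SF2 17, 12 and 15.3 against 22.1, 23.3 and 34.6, also without overlap. For FADS1, given above, the 3 cNSF-HA libraries lay below the 3 PBS libraries. The log2 differences were 0.22 for ACAT2, -0.18 for FADS1 and 0.80 for TM7SF2 (adjusted p 0.537, 0.556 and 0.558, limma), with 0.099 for ACAT2 under library weights. ACAT2 shares 52.3% of its exon length with genes on the opposite strand, whose reads cannot be told apart from its own.

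Between fNSF-HA + tBHP and PBS + tBHP cells, 7 of the 33 genes (21.2%) had an unadjusted p under 0.05, 2 higher and 5 lower, and none was called, with 0.139% of all genes called and 3102 of them (22.7%) at that unadjusted p. INSIG2, MVD and FASN came first. With only the 2 groups fitted, 1 of the 33 had such a p and 0% of all genes were called (limma). INSIG2 read 148, 189 and 168 in PBS + tBHP and 231, 257 and 188 in fNSF-HA + tBHP cells. MVD read 514, 442 and 398 against 339, 202 and 448, and in both genes, as in FASN, the groups overlapped. The log2 differences were 0.41 for INSIG2, -0.52 for MVD and -0.51 for FASN (adjusted p 0.11, 0.155 and 0.161, limma). DESeq2 called INSIG2 at 0.42 (adjusted p 0.0446), or 3.03% of the 33 genes against 3.21% of all genes, and edgeR called none of the 33. Without fNSF-HA + tBHP replicate 3 all 3 were called, with differences of 0.54, -0.78 and -0.76, and without replicate 2 none was, with 0.31, -0.20 and -0.20 (adjusted p 0.431, 0.687 and 0.713, limma). With all libraries kept and weighted, they were 0.43, -0.30 and -0.22, all called (adjusted p 0.00189, 0.0183 and 0.0369, limma). FASN gave -0.30 without PBS + tBHP replicate 1. The differences were 0.14, -0.19 and -0.096, again with no call, with the GC and length trend removed.

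In cNSF-HA against fNSF-HA cells after tBHP, 11 of the 33 (33.3%) had an unadjusted p under 0.05, 7 higher and 4 lower, and none was called, with 0% of all genes called and 4412 of them (32.2%) at that unadjusted p. With only the 2 groups fitted, 2 of the 33 had such a p and again 0% of all genes were called (limma). DESeq2 called MVD (0.72, adjusted p 0.0262) and MSMO1 (-0.49, 0.0488), or 6.06% of the 33 genes against 7.08% of all genes, and edgeR none. MVD, which decarboxylates mevalonate diphosphate, read 453, 523 and 653 in cNSF-HA + tBHP and 339, 202 and 448 in fNSF-HA + tBHP cells. SCD read 3013, 3003 and 2386 against 3327, 3542 and 2985, and MSMO1 is given above. The groups of MVD did not overlap, with fNSF-HA + tBHP replicate 2 far below the rest, and those of SCD and MSMO1 did. The log2 differences were 0.78 for MVD, -0.23 for SCD and -0.47 for MSMO1 (95% confidence intervals 0.37 to 1.18, -0.40 to -0.067 and -0.83 to -0.11; adjusted p 0.0981, 0.0981 and 0.101, limma).

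The calls in the comparisons with fNSF-HA + tBHP cells changed with the library left out and with library weights. Without fNSF-HA + tBHP replicate 3, 16 of the 33 genes (48.5%, against 40.8% of all genes) were called between cNSF-HA and fNSF-HA and 12 (36.4% against 29.4%) between fNSF-HA and PBS, and without replicate 2 none was in either comparison. MVD read 1.03 on the log2 scale (adjusted p 0.00115, limma) without replicate 3 and 0.46 (0.572) without replicate 2. In the same comparison MSMO1 read -0.27 without replicate 2, and SCD read -0.12 without cNSF-HA + tBHP replicate 3 (adjusted p 0.577 and 0.275, limma). With all libraries kept and weighted by their spread, 14 genes (42.4% against 38.6%) were called between cNSF-HA and fNSF-HA, MVD at 0.57 and MSMO1 at -0.55 among them (adjusted p 6.34e-06 and 7.07e-06, limma), and 4 (12.1% against 20.4%) between fNSF-HA and PBS. Across the 33 genes, the log2 difference was larger at higher GC content (Spearman's rho 0.74 over 33 genes measured in the same libraries). With the GC and length trend removed, the log2 differences were 0.35 for MVD, -0.047 for SCD and -0.20 for MSMO1 (adjusted p 0.132, 0.581 and 0.268, limma).

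**Figure D4:**
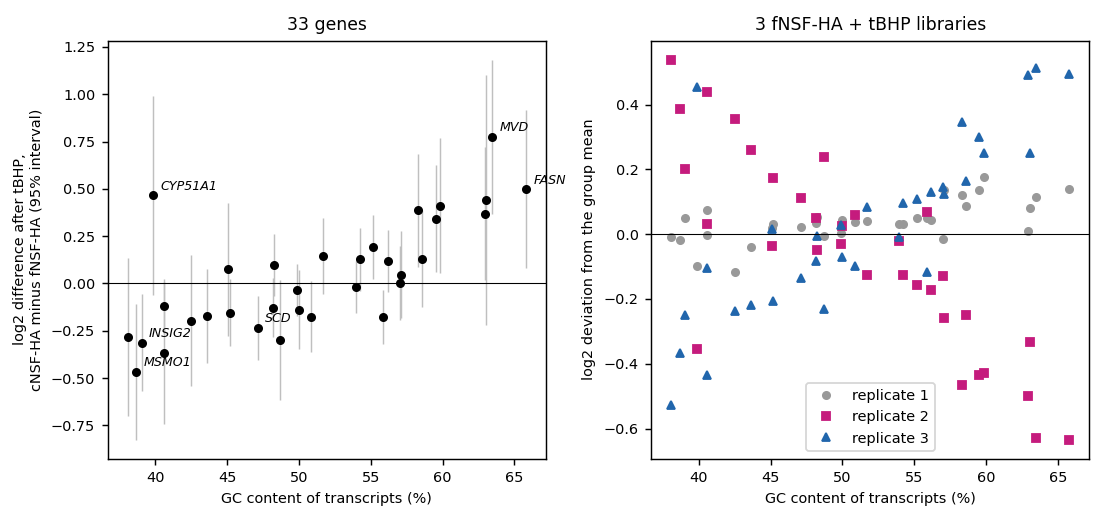
Left, log2 difference of cNSF-HA + tBHP from fNSF-HA + tBHP cells (y axis, with 95% confidence intervals) against the GC content of the transcripts (x axis, percent) for the 33 genes. Right, deviation of each gene from the group mean in the 3 fNSF-HA + tBHP libraries against the same axis: replicate 2 falls from 0.54 for SC5D to -0.63 for FASN, and replicate 3 runs the opposite way.

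The third question was whether the tBHP response itself depended on the HA given before. Tested as the difference between responses, none of the 33 genes was called for cNSF-HA minus PBS (0% of all genes tested called), fNSF-HA minus PBS (0%) or cNSF-HA minus fNSF-HA (0%), by limma. The unadjusted p was under 0.05 for 0, 3 and 2 genes in these comparisons, which share their PBS or HA libraries in pairs. Over all genes it was under 0.05 for 555, 942 and 533. Neither edgeR nor DESeq2 called any of the 33 genes here. With library weights, 1 gene (INSIG2; 3.03%, against 7.61% of all genes) was called for fNSF-HA minus PBS and 3 (MVD, MSMO1 and FASN; 9.09% against 7.09%) for cNSF-HA minus fNSF-HA, MVD at 0.50 (adjusted p 0.00832, limma). SCAP and MVK, called in fNSF-HA cells alone, were called in none of these differences.

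The rise of VLDLR differed by 0.034 (95% confidence interval -0.19 to 0.26) between cNSF-HA and PBS cells and by 0.11 (-0.11 to 0.34) between fNSF-HA and PBS cells on the log2 scale. For ELOVL6 the differences were -0.044 (-0.29 to 0.21) and 0.12 (-0.13 to 0.37). The intervals for MSMO1 were wider, at -0.51 to 0.50 and -0.19 to 0.82.

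The smallest p values were those of ACAT2 and FADS1 for cNSF-HA minus PBS, CYP51A1 and EBP for fNSF-HA minus PBS, and MVD and PMVK for cNSF-HA minus fNSF-HA. ACAT2, at 986, 990.0 and 937 in PBS and 998, 908 and 982 in cNSF-HA cells without tBHP, gave 0.23, and FADS1 gave -0.18 (unadjusted p 0.0503 and 0.0752, adjusted p 0.999 for both, limma). CYP51A1 read 58.9, 46.7 and 41.5 in PBS and 56.9, 55.2 and 55.9 in fNSF-HA cells without tBHP, and 59, 55.5 and 37.2 in PBS and 30.7, 25.5 and 45.6 in fNSF-HA cells after it. EBP read 632, 604 and 618 in PBS and 649, 638 and 646 in fNSF-HA cells without tBHP, and 639, 612 and 613 in PBS and 566, 491 and 590.0 in fNSF-HA cells after it. In each of these 2 genes fNSF-HA + tBHP replicate 2 was the lowest library. Their differences between responses were -0.78 and -0.24 (unadjusted p 0.0406 and 0.0478, adjusted p 0.667 for both, limma), and that of EBP was -0.16 with the GC and length trend removed.

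MVD, at 555, 538 and 521 in cNSF-HA and 488, 543 and 499 in fNSF-HA cells without tBHP, gave a difference of 0.70 between responses. PMVK, the second kinase of the mevalonate steps, read 362, 343 and 393 in cNSF-HA and 396, 353 and 393 in fNSF-HA cells without tBHP and 376, 357 and 414 in cNSF-HA and 331, 222 and 370.1 in fNSF-HA cells after it, and gave 0.40. Again fNSF-HA + tBHP replicate 2 held the lowest value of both genes. The unadjusted p values were 0.0203 and 0.0499 (adjusted p 0.71 for both, limma). Without that library the differences were 0.38 for MVD and 0.18 for PMVK, and with the GC and length trend removed 0.37 and 0.19.

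Other genes around the pathway were taken from 3 lists, also chosen with earlier results of these data known, so that their shares are descriptions. Of 14 further isoprenoid and sterol genes and proteins that process SREBPs, all 14 tested, 8 were called lower and 1 higher in all 3 responses (57.1% and 7.14%, against 17.9% and 14.6% of all genes). LBR, a sterol reductase of the nuclear envelope, fell from values of 1719 to 1939.6 without tBHP to values of 637 to 1024 after it, with log2 changes of -1.22 in PBS, -1.37 in cNSF-HA and -1.15 in fNSF-HA cells. The gene that rose was SYVN1, a ubiquitin ligase of the endoplasmic reticulum, from values of 1002 to 1137 without tBHP to values of 1740.3 to 2483 after it, with log2 changes of 1.07 in PBS, 1.02 in cNSF-HA and 0.96 in fNSF-HA cells. The median log2 change of the list was -0.32, -0.32 and -0.30 in PBS, cNSF-HA and fNSF-HA cells.

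Of 24 further fatty acid and glycerolipid genes, 23 were tested, of which 6 were lower and 2 higher in all 3 responses (26.1% and 8.70%). HACD2, a dehydratase of fatty acid elongation, fell from values of 1306 to 1525 without tBHP to values of 455 to 759.5 after it, with log2 changes of -1.57 in PBS, -1.51 in cNSF-HA and -1.27 in fNSF-HA cells. SCD5, a second stearoyl-CoA desaturase, fell with log2 changes of -0.58 in PBS, -0.72 in cNSF-HA and -0.70 in fNSF-HA cells. FADS3, of the same family as FADS1 and FADS2, rose from values of 729 to 895 without tBHP to values of 1194 to 2408 after it, with log2 changes of 1.33 in PBS, 1.29 in cNSF-HA and 1.11 in fNSF-HA cells. The median log2 change of the list was 0.071, 0.082 and -0.098.

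Of 16 genes of sterol uptake, storage and efflux, 15 were tested, of which 5 were higher and 2 lower in all 3 responses (33.3% and 13.3%). The lipoprotein receptor LRP8, a close relative of VLDLR, rose from values of 708 to 798 without tBHP to values of 1061 to 1349 after it, with log2 changes of 0.78 in PBS, 0.68 in cNSF-HA and 0.72 in fNSF-HA cells. SOAT1, which esterifies cholesterol for storage, fell from values of 1787 to 2037 without tBHP to values of 821 to 1219 after it. LIPA, which frees cholesterol from esters in the lysosome, fell with log2 changes of -0.93 in PBS, -0.83 in cNSF-HA and -0.61 in fNSF-HA cells. The median log2 change of this list was 0.28, 0.35 and 0.27. Each of the 8 genes named from the 3 lists was called in each response, SCD5 in PBS cells with the highest adjusted p, 2.43e-04 (limma).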

How the data were processed

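RNA sequencing libraries of 18 IMR90 cultures (TruSeq RNA V2, unstranded, single-end reads of 100 nt, Illumina) were grouped by their labels into 6 groups of 3. According to the submitters' processing notes, reads were handled with Trimmomatic 0.32, STAR 2.5.2b, featureCounts of Subread 1.5.0-p3 and DESeq2, on GRCh38.p7. The deposited values are a signal, the reads per gene that the authors divided by a DESeq2 size factor for each library. Whole reads were recovered from them, with 100% of values within 0.01 read of a whole number, so depth is 20261103 to 26287660 reads per library and intervals cover the spread between these libraries. Deposited p-values of the authors' own comparison were not used.

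Genes with a mean value of at least 10 (13686 of 56269) were tested with limma 3.58.1 (R 4.3.3) on log2(value + 1) (trend of the variance with the mean on, 6 group coefficients, two-sided) and Benjamini-Hochberg adjustment over all of them, at 0.05. Fold changes are on that scale and understate those of low genes. The contrasts were 3 tBHP responses, 6 comparisons between pre-incubations and 3 differences between responses. The fits were also run on simulated counts with 1 spread per gene in every group. That cannot show how they behave where the spread differs between groups, as it did here.

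The 33 genes and the other lists were chosen with earlier results of these data known. Values of every library are given for the 14 genes with a mean of at least 100 and the largest mean tBHP response, the 3 with the smallest p in 4 comparisons of HA and the 2 with the smallest p in each difference between responses. INSIG1 in the tBHP response, SQLE, FDPS, NSDHL and FADS2 were added after their values were seen, to cover all genes called in the 3 responses. From the other lists, the 3 genes of each with a mean of at least 100 and the largest mean tBHP response are named, except 1 that is not reported here. Alternatives were other pseudocounts (0.1 and 5), minimum means (none and 50), scalings and fits, edgeR 4.0.16 and DESeq2 1.42.0 on the recovered reads, a replicate block, library weights, removal of a GC and length trend (splines with 5 degrees of freedom, transcripts of GENCODE, 91.5% of genes), and each library left out. RPKM used the recovered reads and the exon length of the GENCODE annotation. Promoter windows came from RefSeq, build GRCh38.p14.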

Additional observations from a re-analysis of the deposited data

How the results depend on the processing

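Among values of single named genes, 441 kept their direction and side of the threshold with 1 library left out and 854 under the other alternatives, while 35 and 23 lost a call, 9 and 19 gained one and 1 and 2 changed sign. The causes were not tested. In PBS cells 20 genes were called lower without the GC and length trend (29.4% of all genes), and the median log2 change was -0.19 with quantile normalization, -0.15 with edgeR, -0.16 with library weights and from -0.22 to -0.15 with 1 library left out. In cNSF-HA cells the median was -0.077 with edgeR. In fNSF-HA cells 2 genes were called higher with no minimum mean, 2 with only the compared groups, 2 without the GC and length trend, and from 2 to 6 with 1 library left out. Their median was -0.25 with quantile normalization, -0.24 with edgeR, -0.22 with library weights, -0.23 without the GC and length trend and from -0.32 to -0.24 with 1 library left out. SREBF1 in fNSF-HA cells turned to -0.0030 without fNSF-HA + tBHP replicate 3 and reached 0.49 without replicate 2, and SQLE to 0.13 in PBS and 0.037 in cNSF-HA cells without the GC and length trend.

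For cNSF-HA against fNSF-HA without tBHP, 2 genes (6.06%, against 7.16% of all genes) were called when only those groups were fitted. After tBHP, fNSF-HA against PBS gave 1 gene with DESeq2, 4 with library weights and from 0 to 12 with 1 library left out. In cNSF-HA against fNSF-HA cells these were 2, 14 and from 0 to 16. Library weights called 1 gene (INSIG2) for fNSF-HA minus PBS and 3 (MVD, MSMO1 and FASN) for cNSF-HA minus fNSF-HA, against 7.61% and 7.09% of all genes. For all genes, fNSF-HA against PBS after tBHP gave 331 higher and 109 lower with DESeq2 and 1582 and 1212 with library weights, and cNSF-HA against fNSF-HA gave 322 and 647, then 2281 and 3005. With the replicate block, 7 genes were higher and 12 lower in PBS, 7 and 13 in cNSF-HA and 5 and 19 in fNSF-HA cells (25.1% and 27.7%, 24.7% and 27.7%, and 19.8% and 23.7% of all genes), with 0 in the other comparisons, where 51 genes in all were higher and 10 lower in fNSF-HA against PBS after tBHP. The numbers were not taken as pairs, since the correlations of same-numbered libraries ran from -0.12 to 0.33. Depth of the least expressed genes, and 3 libraries per group, limit what could be seen.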
